A study of Mus musculus with 16 samples.

Results

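The genes described here are the mouse zinc finger genes whose symbol is Zfp followed by a number in the 900s. They were taken from a RefSeq table of the mouse genome build GRCm38.p6 (mm10) as the protein-coding genes with such a symbol on an autosome, and there were 62 of them among 20665 protein-coding autosomal genes. For each gene the deposited window of 5000 bp whose midpoint lay nearest the transcription start site (TSS), within 650 bp, was used, together with every accessible region inside that window. A window was found for 51 of the 62 genes. The other 11 were Zfp930, Zfp934, Zfp936, Zfp951, Zfp958, Zfp964, Zfp981, Zfp983, Zfp993, Zfp995 and Zfp996, and they are not analysed further.

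The assay was ATAC-seq, which maps open chromatin with a transposase that cuts accessible DNA and tags it with sequencing adaptors. The cells were mouse embryonic stem cells of the genotype FOXD3-iKO, in which the forkhead transcription factor FOXD3 can be depleted, and all of them were grown in L2i medium. The 4 groups labelled 4HT had received tamoxifen to deplete FOXD3, and the 4 groups labelled EtOH had received ethanol as the control, with a treatment time of 24 h in each. Both treatments carried the same genotype, and the labels do not say which piece of the allele is removed or how many clones were used. Within each treatment the cells were stained with DAPI and sorted by DNA content into the fractions G1, ES, LS and G2, names that are kept as given. Each group had 2 libraries, 16 in all, but the tables hold 1 column a group with no replicate number, so the values below come from pooled libraries and have no SD. In such bulk material fewer cells with an open start site and less opening in each cell cannot be told apart.

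Proteins with tandem C2H2 zinc fingers bind DNA through the fingers, and many of those encoded in mouse clusters also carry a KRAB domain. That domain recruits Trim28, which brings the histone methyltransferase Setdb1 and HP1 proteins, and the bound site acquires methylation on lysine 9 of histone H3. In embryonic stem cells this pathway keeps endogenous retroviruses and other transposable elements silent. The genes arise by repeated duplication, so that neighbours within a cluster can be nearly identical in sequence.

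The deposited values were read as a coverage signal averaged only over bases with coverage, and an interval with no read has no value. On that reading a level gives depth over covered bases and not how much of a window is covered. More accessible below means a higher level. The smallest value of each column was read as the worth of 1 read, which corresponds to a depth of 6.78 to 11.1 M reads in the 4HT columns and 8.17 to 11.2 M reads in the EtOH columns. Levels are multiples of that 1-read value, a mean level is the mean over the 8 columns, and values of 1 treatment always follow the order G1, ES, LS, G2. A weak window cannot fall below 1, so that differences of weak windows follow depth and losses are understated. As a check of the labelled cell type, start windows of marker genes with a read in every column were compared. The median level was 1.81 for 11 embryonic stem cell markers (range 1.25 to 2.73) and 1.29 for 8 fibroblast markers (1.125 to 1.65). It was 1.18 for 4 primitive endoderm markers (1.11 to 1.22) and 1.21 for 4 two-cell-like markers (1.05 to 2.49). The stem cell range thus overlapped the fibroblast and two-cell-like ranges.

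The sequence at the start of these genes is shown first for the chromosome 2 cluster, because its genes turned out to be read or not read in spite of nearly the same promoter. The promoters come from RefSeq on GRCm38.p6, are written 5′ to 3′ in the direction of the gene, and lie just upstream of or at the start. Capitals mark bases that differ from Zfp966.
Zfp966, chr2:175931101-175931220, minus strand: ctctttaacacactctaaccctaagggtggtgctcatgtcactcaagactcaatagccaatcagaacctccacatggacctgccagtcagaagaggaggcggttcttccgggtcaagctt
Zfp970, chr2:177464617-177464736, plus strand: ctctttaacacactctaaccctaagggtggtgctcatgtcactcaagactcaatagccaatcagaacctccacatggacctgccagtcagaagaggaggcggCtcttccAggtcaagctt
Zfp971, chr2:178023150-178023269, plus strand: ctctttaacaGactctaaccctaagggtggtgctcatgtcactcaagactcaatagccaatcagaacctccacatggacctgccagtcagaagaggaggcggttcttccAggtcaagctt
The same 120 bases as in Zfp966 stood on the plus strand at the starts of Zfp965 (chr2:175469891-175470010), Zfp967 (chr2:176520884-176521003), Zfp968 (chr2:175372342-175372461) and Zfp973 (chr2:176670428-176670547). Zfp970 and Zfp971 each differed from them at 2 bases.

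A second set of promoters shows genes with high and low start windows. Capitals mark the sequence CCAAT, the core of the site that the trimeric factor NF-Y binds, or its complement ATTGG, and each run ends at the last base before the start.
Zfp961, chr8:71950946-71951065, plus strand: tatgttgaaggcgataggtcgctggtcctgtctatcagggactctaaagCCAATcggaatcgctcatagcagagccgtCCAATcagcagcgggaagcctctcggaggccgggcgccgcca
Zfp963, chr8:69749963-69750082, minus strand: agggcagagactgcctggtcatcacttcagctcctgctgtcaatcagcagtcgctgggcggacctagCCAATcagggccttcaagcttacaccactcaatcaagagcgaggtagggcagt
Zfp974, chr7:27929459-27929578, minus strand: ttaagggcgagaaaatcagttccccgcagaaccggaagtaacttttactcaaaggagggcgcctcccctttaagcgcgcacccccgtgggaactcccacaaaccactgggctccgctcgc
Zfp957, chr14:79247368-79247487, minus strand: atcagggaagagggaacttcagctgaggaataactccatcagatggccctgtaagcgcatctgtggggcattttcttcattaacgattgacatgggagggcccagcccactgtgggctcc
Zfp961 and Zfp963, among the most accessible of these genes, held 2 and 1 copies of the motif in these bases. Zfp974 and Zfp957, the least accessible, held 0. Of the next lowest genes, Zfp994, Zfp931 and Zfp970 held 2 copies each in the 300 bases around the start, and Zfp948 held 0.

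The 62 genes lay on 13 chromosomes, and 42 of them were within 1 Mb of another in 6 groups, the other 20 standing alone. The largest group held 14 genes on chromosome 4 between 145510759 and 147849126. The next held 10 genes on chromosome 17 between 21565816 and 22867309, and 9 genes on chromosome 2 between 175372034 and 178078425. These 3 groups differed in what could be read at their starts.

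Of the 51 start windows, 46 had a read in every column and 5 had a read in none. Over the 46 genes the median level was 1.48 times the 1-read value, with quartiles of 1.39 and 1.68 and a range of 1.10 to 2.83. The 249 other autosomal Zfp genes with a read in every column had a median of 1.51, and the 17495 other protein-coding genes had a median of 1.36. A level of at least 1.3 was reached by 87.0% of the 46 genes, by 82.3% of the other Zfp genes and by 59.0% of the remaining protein-coding genes. No test was made of these levels, which describe the 8 columns.

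The median level of the 46 genes followed the order of depth among the 4HT columns, and among the EtOH columns except that ES and LS changed places. The order did not hold across treatments. It was 1.33, 1.49, 1.57 and 1.39 in 4HT cells, while in EtOH cells it was 1.51, 1.43, 1.49 and 1.66. The lowest of the 8 values belonged to the shallowest column (4HT in G1, 6.78 M reads) and the highest to the deepest (EtOH in G2, 11.2 M reads), and the other protein-coding genes had their lowest and highest medians, 1.26 and 1.47, in the same columns. The treatments and fractions are therefore tested only after centring of the columns on each other.

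Zfp960 on chromosome 17 had the most accessible start window (chr17:17061464-17066463). No promoter is listed for Zfp960, Zfp978, Zfp990, Zfp991 or Zfp992. Their starts were taken, without knowledge of the strand, as the gene end with a window within 650 bp. The level of Zfp960 was 2.36, 2.85, 3.41 and 2.36 in 4HT cells, and 3.34, 2.18, 2.76 and 3.35 in EtOH cells. The treatments overlapped widely, and the mean over the 8 columns was 2.83. Zfp961 and Zfp963 on chromosome 8, whose promoters are printed above, followed among the genes outside the clusters of chromosomes 2, 4 and 17. Zfp961 stood at 2.15, 2.03, 2.35 and 2.32 in 4HT cells and at 2.37, 2.37, 2.23 and 3.17 in EtOH cells. Zfp963 stood at 1.92, 2.21, 2.45 and 2.26 in 4HT cells and at 1.81, 1.76, 2.94 and 3.16 in EtOH cells. In both genes the highest single column was EtOH in G2, the deepest library pool, and the values of the treatments overlapped.

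Within the clusters of chromosomes 2, 4 and 17 the genes Zfp992, Zfp978 and Zfp972 had the highest means, at 2.49, 2.42 and 1.82. Zfp992 (chr4:146446374-146451373) had levels of 2.43, 2.76, 2.02 and 2.25 in 4HT cells and 3.32, 2.11, 2.36 and 2.71 in EtOH cells. Zfp978 (chr4:147122607-147127606) had 2.496, 2.40, 2.05 and 2.78 in 4HT cells and 2.63, 2.14, 2.14 and 2.75 in EtOH cells. Both lie on chromosome 4 and have no listed promoter, and neither separated the treatments. Zfp972 on chromosome 2 had 1.83, 1.55, 2.003 and 1.38 in 4HT cells and 1.98, 1.73, 1.63 and 2.48 in EtOH cells, with overlap as well.

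At the other end Zfp974 on chromosome 7 and Zfp957 on chromosome 14 were close to the smallest level that can be recorded, with means of 1.10 and 1.12. Zfp974 ran from 1.02 to 1.11 in 4HT cells and from 1.07 to 1.21 in EtOH cells. Zfp957 ran from 1.02 to 1.22 in 4HT cells and from 1 to 1.23 in EtOH cells. Neither window held an accessible region. The next lowest means were 1.26 for Zfp994 and Zfp931, 1.28 for Zfp948 and 1.29 for Zfp970, and these 6 genes fell under the minimum of 1.3 that was set for testing. Just above it stood Zfp953 at 1.32 and Zfp982 at 1.35, which left 40 genes tested.

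**Figure D1:**
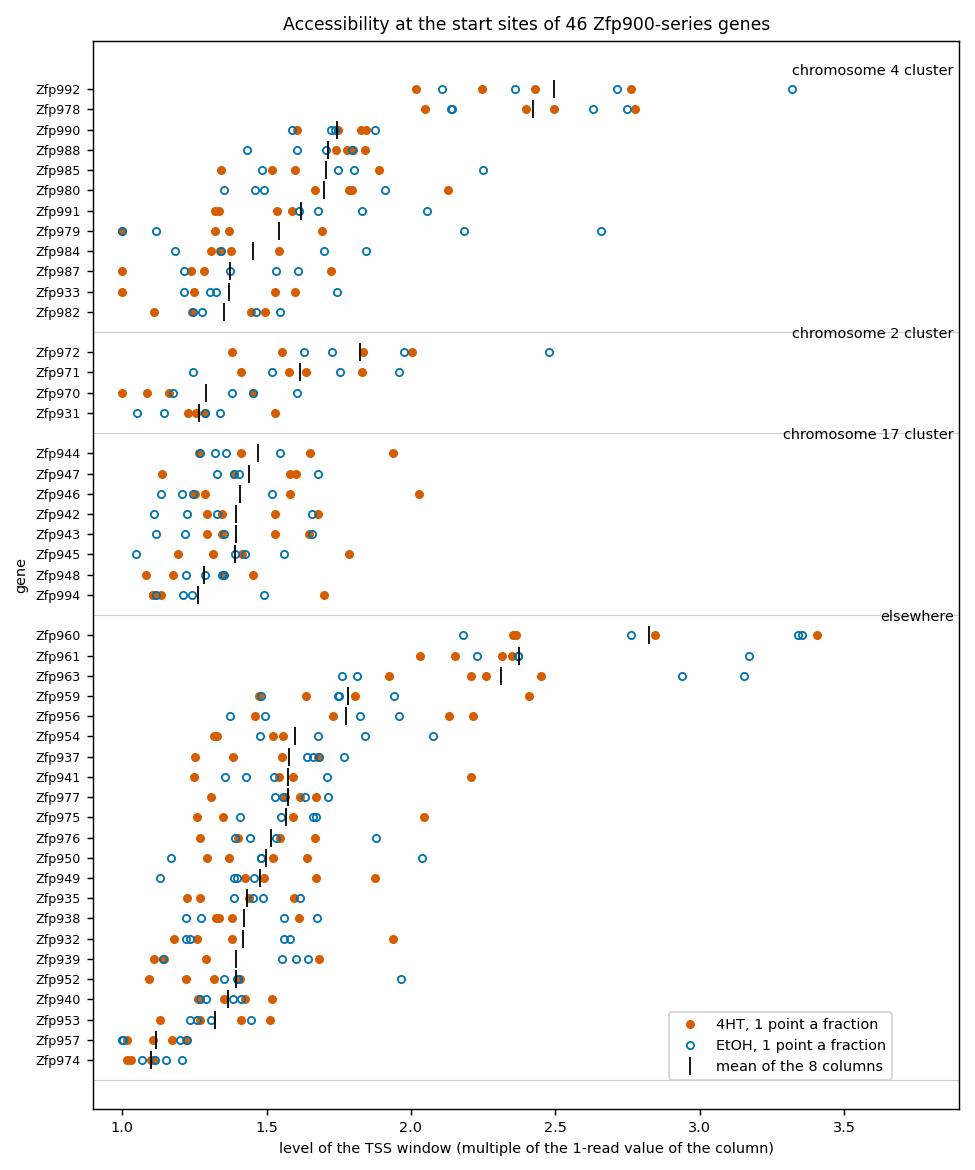
Level of the TSS window of the 46 genes with a read in every column, as a multiple of the 1-read value of the column (x axis), 1 row a gene (y axis) grouped by cluster. Filled points are the 4 fractions of 4HT cells, open points the 4 fractions of EtOH cells, and the bar is the mean of the 8 columns; Zfp960 is highest at 2.83 and Zfp974 lowest at 1.10, and the points of the treatments overlap at both.

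The 5 genes without a read in any column were Zfp965, Zfp966, Zfp967, Zfp968 and Zfp973, and all 5 lie in the chromosome 2 cluster. Counting every distinct window on the chromosome, they fell inside 1 run of 37 consecutive windows without a read, from 175204568 to 176672872. No accessible region overlapped that run. The windows next to the run on each side were read in every column, at mean levels of 1.80 and 1.45. A count of 0 allows up to 3 reads in a column, for counting error only. That is 0.271 to 0.442 reads per M in 4HT cells and 0.268 to 0.367 reads per M in EtOH cells. The bound holds only if reads from this run were placed and kept, and not filtered out or masked, which is not known here. A second run of 6 windows without a read followed at 176853199 to 177035005 and held none of the genes. Across the genome 683 of 38053 distinct windows had no read in any column, which was the state of 9.80% of the 51 genes described here, 0 of the 251 other Zfp genes and 0.778% of the remaining 17871 protein-coding genes with a window.

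The 4 remaining genes of the cluster could be read. Zfp970 had a level of 1, 1.08, 1.45 and 1.16 in 4HT cells, and of 1.45, 1.17, 1.61 and 1.38 in EtOH cells. Zfp971 had a mean of 1.62, Zfp972 of 1.82 and Zfp931 of 1.26. The signal of 4HT in G1 at Zfp970 was that of 1 read, so this gene stood near the lower limit in the shallowest column. Over the whole segment from 175372034 to 178078626 there were 7.39 accessible regions per Mb, compared with 55.1 per Mb on chromosome 2 as a whole. Of 63 other windows in that segment, 32 had no read in any column and 29 had a read in every column, with a median level of 1.31.

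**Figure D2:**
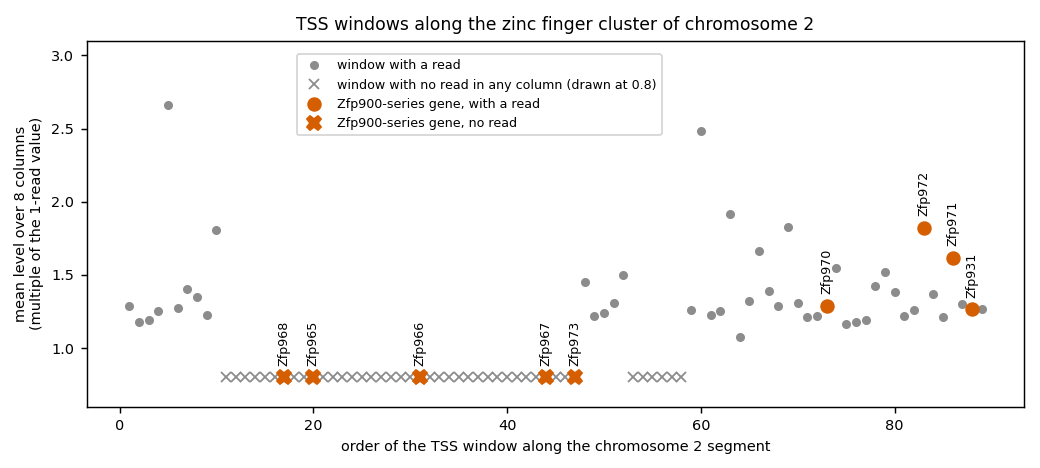
Mean level over the 8 columns (y axis, multiple of the 1-read value) of the TSS windows along the chromosome 2 cluster and its flanks, in their order on the chromosome (x axis). Crosses are windows with no read in any column, drawn at a fixed height; the large crosses are Zfp968, Zfp965, Zfp966, Zfp967 and Zfp973, and the large points are Zfp970, Zfp972, Zfp971 and Zfp931, which had a read in every column.

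Near copies of the promoter were counted beside these windows, since a read that matches more than 1 place may be dropped or placed at random and the treatment of such reads is not given in the sources used here. A near copy was defined as the promoter of a gene at another locus, of 300 bases (250 before the start and 50 after), that aligned on the same strand over at least 250 bases with at least 95% identity. Zfp966 and Zfp967 were identical over the 300 bases, Zfp968 and Zfp973 shared 99.67% of them, and Zfp965 shared 97% with Zfp971. Each of the 5 genes without a read had between 8 and 11 near copies. Zfp970 had 25 near copies, with 99.32% identity to Zfp966 over 295 bases, and Zfp971 had 24, yet both were read in every column.

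Among all protein-coding autosomal genes with a window and a listed promoter, 111 of the 670 with a near copy had no read in any column (16.6%). The same was true of 14 of the 14059 without one (0.0996%). Of the genes described here, 5 of the 16 with a near copy had no read (31.2%), and 0 of the 30 without one. Leaving these genes out, the shares over the rest were 16.2% of 654 and 0.0998% of 14029. Near copies and missing reads thus went together over the genome, and their part in the empty windows was not tested beyond these counts.

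Having a near copy was frequent among these genes and rare among other Zfp genes. Among genes with a window and a listed promoter it applied to 16 of 46 (34.8%). It applied to 6 of 211 other Zfp genes (2.84%) and 648 of 14472 remaining protein-coding genes (4.48%). These 46 are not the 46 genes with a read in every column. They hold the unread genes of chromosome 2 and leave out Zfp960, Zfp978, Zfp990, Zfp991 and Zfp992. Outside chromosome 2 the copies were mostly pairs, and every one of those windows was read in all 8 columns. Zfp942 matched Zfp944 at 99.64% over 275 bases, Zfp943 matched Zfp758 at 99.66% over 293 bases, and Zfp979 matched Zfp600 at 98.31% over 295 bases. Zfp988 matched Zfp534 at 96.23%, Zfp987 matched Zfp988 at 96.20%, Zfp959 matched Zfp119b at 96.97% and Zfp994 matched Gm7072 at 96.43%. For these pairs the values of 1 gene may hold reads of its copy.

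The promoters of the same 46 genes, those with a window and a listed promoter, were also poorer in CpG than those of other genes. The median count of CpG in the 300 bases was 7.5 and the median GC content 49.2%, against 16 and 55.7% for the other Zfp genes and 15 and 57.3% for the remaining protein-coding genes. Across the 41 genes with a read in every column and a listed promoter, level and CpG count had a Pearson r of 0.163 and a Spearman rho of 0.011. These points share the libraries and, in part, the ancestry of the genes, so the values are a description.

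CCAAT, on either strand, was found in the 300 bases of 35 of the 46 genes with a window and a listed promoter (76.1%). It was found in 96 of 211 other Zfp promoters (45.5%) and in 5618 of 14472 remaining protein-coding promoters (38.8%). Zfp941 held 4 matches, and Zfp972 and Zfp939 held 3 each. The chromosome 2 genes with near copies, Zfp931, Zfp965, Zfp966, Zfp967, Zfp968, Zfp970, Zfp971 and Zfp973, held 2 each. The 30 genes with the motif and a read in every column had a median level of 1.53 (range 1.26 to 2.37), whereas the 11 without it had a median of 1.39 (range 1.10 to 1.48). The ranges overlapped between 1.26 and 1.48. Of the 11 genes without the motif, Zfp942, Zfp943, Zfp944, Zfp945, Zfp946 and Zfp948 lie in the chromosome 17 cluster. Zfp942 and Zfp943 among them share a start window almost entirely. The split by motif was thus in part a split by cluster. All levels above 1.48 among these 41 genes belonged to promoters that held the motif, and no test was made of this, because related genes share their promoter sequence.

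**Figure D3:**
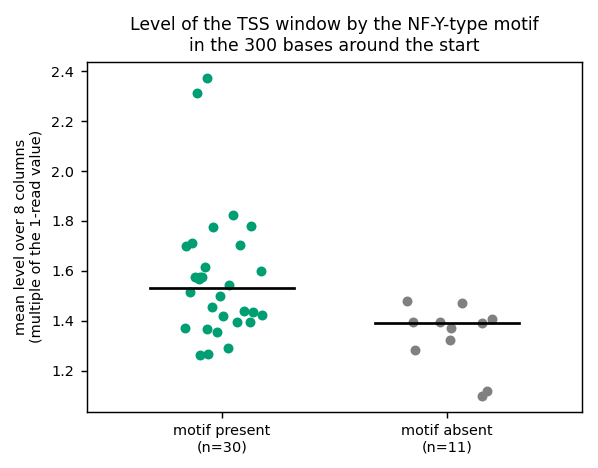
Mean level over the 8 columns (y axis, multiple of the 1-read value) of the 41 genes with a read in every column and a listed promoter, split by whether the core motif bound by NF-Y occurs in the 300 bases around the start. Points are genes and bars are medians, 1.53 for 30 genes with the motif and 1.39 for 11 genes without it.

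The chromosome 4 cluster combined a higher median level than the other genes with few accessible regions. Its 12 genes with a window were all read in every column, with a median level of 1.66 (range 1.35 to 2.49), against 1.44 for the 34 genes elsewhere. In 8 of these 12 windows there was no accessible region, namely at Zfp979, Zfp980, Zfp982, Zfp987, Zfp988, Zfp990, Zfp991 and Zfp992. Elsewhere 4 of 34 windows lacked one, those of Zfp931, Zfp957, Zfp970 and Zfp974. The 76 other windows of the segment shared both features: 60 were read in every column at a median level of 1.73, and 40 of the 60 held no region. The segment had 20.5 regions per Mb, compared with 48.8 per Mb on chromosome 4.

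Taking only genes with a level of at least 1.5, where a region could be looked for at like signal, 6 of 21 of the genes described here had no region (28.6%). These were Zfp979, Zfp980, Zfp988, Zfp990, Zfp991 and Zfp992, all in the chromosome 4 cluster. The share thus describes that cluster and not the genes elsewhere. Among other Zfp genes it was 1 of 125 (0.8%), and among the remaining protein-coding genes 105 of 6061 (1.73%). The rule by which the regions were called is not given in the sources used here. Zfp982, a gene with a proposed role in the embryonic stem cell state, has a further start: the window there (chr4:147440822-147445821) had a level of 1.99 and held 1 region, against 1.35 and 0 at the start that was used.

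The chromosome 17 cluster was the most even of the large groups. Its 8 genes with a window were all read in every column, at a median level of 1.39 and within 1.26 to 1.47, and each of the 8 windows held a region. Its segment had 49.9 regions per Mb, compared with 53.9 per Mb on chromosome 17. Of the 19 other windows of that segment 11 held no region, at a median level of 1.33 over the 19.

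Across all genes 49 distinct regions lay inside the windows of 34 genes, with 1 region in 23 genes, 2 in 4 and 3 in 7. The genes with 3 were Zfp932, Zfp942, Zfp943, Zfp946, Zfp948, Zfp949 and Zfp959, and the neighbouring Zfp942 and Zfp943 shared theirs. Zfp932 encodes a KRAB zinc finger protein that binds endogenous retroviruses in embryonic stem cells. Of the 49 regions 28 covered the start itself, and 63.3% had a read in every column, compared with 30.5% of all 127646 regions. Their median level was 1.77 and their median width 294 bp (range 112 to 1015 bp).

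The strongest region belonged to Zfp960 (chr17:17063595-17064152). Its level was 6.08, 5.73, 8.62 and 5.52 in 4HT cells, and 8.97, 6.20, 7.01 and 8.20 in EtOH cells. Regions at the starts of Zfp961, Zfp963 and Zfp959 followed with means of 5.44, 4.31 and 4.17. The treatments overlapped at each of these 4 regions. The ranking of the first 3 was the same as for the windows outside the clusters of chromosomes 2, 4 and 17.

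The first comparison asked whether depletion of FOXD3 changed accessibility at these starts. No gene passed the test, and the fitted differences lay on both sides of 0. The test was limma on log2(signal + 0.1), centred across the columns, with terms for treatment and fraction, over the 15323 windows that were read in all 8 columns at a mean level of at least 1.3. With 1 pooled column a group, the 4 fractions stood in for replicates of the treatment, and the p-values do not measure the spread between cultures.

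Of 40 tested genes 0 were called at a Benjamini-Hochberg adjusted p of 0.05 in limma, where 0.0131% of all tested windows were called. At an unadjusted p under 0.05 there were 3 genes (7.5%), against 5.28% of all windows, and the smallest adjusted p was 0.942. The median of 4HT minus EtOH was -0.0080 over the 40 genes and 0.00059 over all windows, both on the centred log2 scale. Above 0 were 18 of the 40, and the range was -0.18 to 0.19.

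Zfp980 in the chromosome 4 cluster had the highest difference. Its level was 1.79, 1.80, 1.67 and 2.13 in 4HT cells, and 1.49, 1.46, 1.35 and 1.91 in EtOH cells. Every 4HT value was above the EtOH value of its own fraction, although the groups overlapped, as EtOH in G2 exceeded 3 of the 4HT columns. The fitted difference was 0.19 (SE 0.091, unadjusted p 0.0406, adjusted p 0.942 in limma).

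Zfp991, also on chromosome 4 and with a start taken from a gene end, had the lowest difference. Its level was 1.33, 1.59, 1.54 and 1.32 in 4HT cells and 1.83, 1.61, 1.68 and 2.06 in EtOH cells. The groups did not overlap: the highest 4HT column, ES, was just below the lowest EtOH column, also ES. The difference was -0.18 (SE 0.088, unadjusted p 0.0468, adjusted p 0.942 in limma). Zfp980 and Zfp991 thus lay on opposite sides of 0 within the same cluster, and neither passed the adjusted threshold.

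After centring, a same-signed difference in 4 of 4 fractions was seen in 2 genes toward higher and 3 toward lower accessibility in 4HT cells, which is 5% and 7.5% of the 40, compared with 6.58% and 6.32% of all tested windows. The second higher gene was Zfp956, with 2.13, 1.46, 2.22 and 1.73 in 4HT cells and 1.82, 1.37, 1.496 and 1.96 in EtOH cells, and a difference of 0.15 (SE 0.095). In ES and G2 it differed by only 0.014 and 0.018 after centring. The lower genes besides Zfp991 were Zfp952, at -0.16 (SE 0.080), and Zfp937, at -0.12 (SE 0.085). Zfp937 had 1.25, 1.55, 1.68 and 1.38 in 4HT cells and 1.66, 1.64, 1.68 and 1.77 in EtOH cells, and after centring it differed by -0.15, -0.11, -0.12 and -0.11 in G1, ES, LS and G2. At Zfp952 the difference rested mostly on ES, where it was -0.42, against -0.036 to -0.099 in the other fractions.

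Without overlap between the 4 columns of each treatment, on the centred scale, there were 0 genes higher and 2 lower in 4HT cells, Zfp937 and Zfp991. The background was 1.29% of all windows higher and 1.25% lower. Of the 6 tested genes of the chromosome 17 cluster 5 were above 0, with a median of 0.091 and none at an unadjusted p under 0.05, but Zfp942 and Zfp943 among them share a start window almost entirely. Zfp949, whose values were looked at because of its unadjusted p of 0.0404, differed by 0.18 but was lower in 4HT cells in ES.

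**Figure D4:**
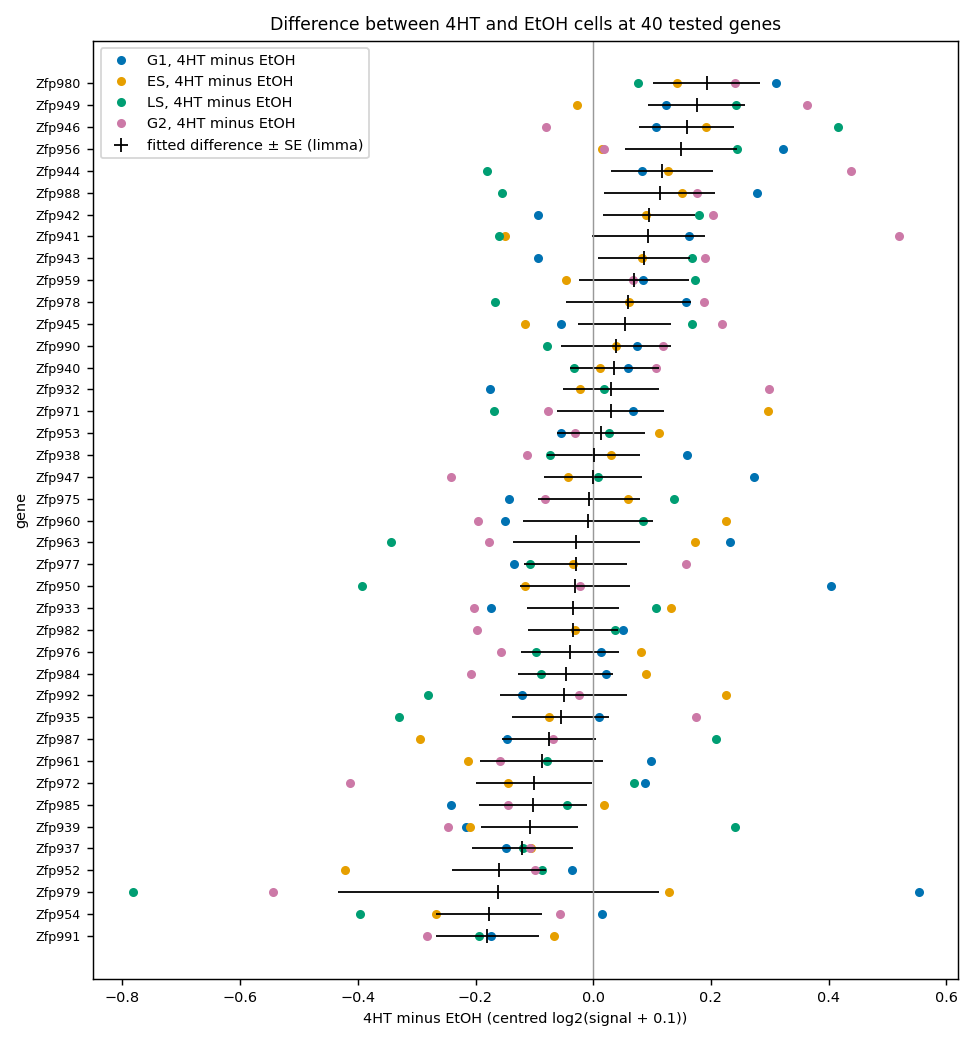
Difference between 4HT and EtOH cells (x axis, centred log2(signal + 0.1)) at the 40 tested genes (y axis). Coloured points are the 4 fractions, and the black bar is the fitted difference with its standard error from limma. Fitted values run from -0.18 at Zfp991 to 0.19 at Zfp980, while the 4 fractions of Zfp979 spread from -0.78 to 0.55. At both ends of that spread 1 column stood at the 1-read value.

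Within single fractions the contrast has 1 column a side and could not be tested. The median of 4HT minus EtOH over the 40 genes was 0.036 in G1, 0.016 in ES, -0.059 in LS and -0.062 in G2. Above 0 were 24 genes in G1, 22 in ES, 18 in LS and 16 in G2. The widest swing was that of Zfp979, a chromosome 4 gene with a near copy at Zfp600, named after its values were seen. It differed by 0.55 in G1, 0.13 in ES, -0.78 in LS and -0.54 in G2. EtOH in G1 and 4HT in LS stood at the 1-read value, so the differences in G1 and LS rest on a column at the lower limit. The fitted standard error of Zfp979 was 0.27, against 0.075 to 0.11 for the other tested genes. Whether the treatment difference depended on the fraction could not be tested either.

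The second comparison asked whether accessibility at these starts differed among the sorted fractions, with the 2 treatments as repeats. Because the fractions differ in DNA content, a difference in accessibility and one in the copies of a segment cannot be told apart here. None of the 40 genes was called in ES, LS or G2 against G1. Of all tested windows, those called were 0.0196% in ES minus G1, 0.0718% in LS minus G1 and 0.0457% in G2 minus G1. At an unadjusted p under 0.05 in limma there were 2 genes in ES, 3 in LS and 2 in G2, against 6.78%, 6.9% and 5.64% of all windows. The smallest adjusted p was 0.639 in ES, 0.538 in LS and 0.875 in G2.

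Medians over the genes were slightly below 0 in each contrast, at -0.013 for ES, -0.032 for LS and -0.022 for G2 minus G1 on the centred log2 scale. Over all windows they were 0.00072, 0.00047 and -9.2e-07. Above 0 were 17 of the 40 genes in each of the 3 contrasts. Without the chromosome 4 genes the medians were 0.0079 in ES, -0.0023 in LS and -5.6e-06 in G2 minus G1.

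In the chromosome 4 cluster 10 of 12 genes were below 0 in ES minus G1, 9 of 12 in LS minus G1 and 9 of 12 in G2 minus G1, with medians of -0.072, -0.060 and -0.053. The LS median was -0.22 within 4HT cells and -0.047 within EtOH cells. The 55 other tested windows of the same segment showed the same sign more strongly: 49 of 55 were below 0 in LS minus G1, with a median of -0.25, and 41 and 44 of 55 in ES and G2, with medians of -0.13 and -0.17. Of the 8 windows of the whole table that were called lower in LS than in G1, 3 lay in this segment, and none of them was at a gene described here. One was the window of Gm13246 (-0.64, SE 0.13, adjusted p 0.0263 in limma). The other 2 overlap each other, at chr4:147518518-147523517 and at Vmn2r-ps20 (-0.80 and -0.79, adjusted p 0.00874 and 0.0104 in limma).

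Zfp992 had the lowest LS minus G1 difference, -0.43 (SE 0.15, unadjusted p 0.0070, adjusted p 0.538 in limma). Its levels, given above, were lower in LS than in G1 in both treatments. Zfp978 followed at -0.37 and Zfp985 at -0.26, both in the same cluster. In G2 minus G1 the lowest were Zfp992 at -0.31, Zfp985 at -0.27 and Zfp956 at -0.20. In ES minus G1 the lowest were Zfp956 at -0.35 (unadjusted p 0.0129, adjusted p 0.639 in limma), Zfp984 at -0.25 and Zfp942 at -0.22.

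The highest differences with the same sign in both treatments were smaller. They were 0.17 at Zfp933, 0.12 at Zfp944 and 0.11 at Zfp982 in ES minus G1. In LS minus G1 they were 0.14 at Zfp938, 0.078 at Zfp937 and 0.077 at Zfp940. In G2 minus G1 they were 0.21 at Zfp963, 0.17 at Zfp945 and 0.16 at Zfp933. None of these fitted differences had an unadjusted p under 0.05 in limma. Some rested mostly on 1 treatment. In G2 minus G1 Zfp963 had 0.0040 in 4HT cells and 0.41 in EtOH cells, and Zfp945 had 0.31 and 0.035. Zfp933 was more even in that contrast, at 0.14 and 0.17.

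**Figure D5:**
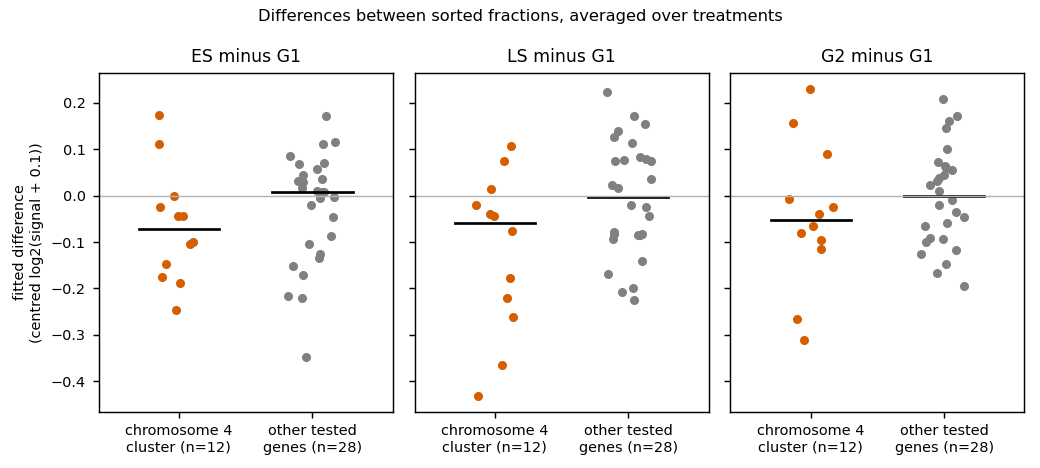
Fitted difference of each tested gene between a sorted fraction and G1 (y axis, centred log2(signal + 0.1)), averaged over treatments, for the 12 genes of the chromosome 4 cluster and the 28 other tested genes. Points are genes and bars are medians; in LS minus G1 the chromosome 4 genes reach -0.43 at Zfp992.

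Accessible regions inside the windows gave the same outcome. Of the 11010 tested regions, which had to be read in all 8 columns at a mean level of at least 2, 15 belonged to 14 of these genes. None of the 15 was called for 4HT minus EtOH or for ES, LS or G2 minus G1, against 0%, 0%, 0% and 0.0182% of all tested regions. At an unadjusted p under 0.05 in limma there were 0, 1, 1 and 3 regions in these contrasts, against 5.42%, 7.13%, 7.28% and 5.9% of all tested regions. The median of 4HT minus EtOH was -0.094, with 5 of 15 above 0.

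The region at the start of Zfp956 (chr6:47953141-47953645) had the largest difference. Its deposited signal was 0.834, 0.157, 0.490 and 0.331 in 4HT cells, and 0.450, 0.236, 0.174 and 0.353 in EtOH cells. G1 was the highest fraction in both treatments, and ES and LS were low except for LS in 4HT cells. ES minus G1 was -1.25 (SE 0.34, unadjusted p 0.00182, adjusted p 0.467 in limma), LS minus G1 was -0.97 and G2 minus G1 was -0.76. Regions of Zfp978 and Zfp960 were the other 2 with an unadjusted p under 0.05 in G2 minus G1 in limma, at -0.71 and -0.45. At Zfp978 the difference was -1.27 in 4HT cells and -0.16 in EtOH cells. Its region stood at the 1-read value in 4HT cells in G2, whereas its window had its highest 4HT level in that column, 2.78.

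Other genes of the pathway through which KRAB zinc finger proteins silence chromatin had start windows whose levels overlapped those of the Zfp900-series genes. A list of 27 genes held the corepressor Trim28, its partner methyltransferase Setdb1, the HP1 genes, the HUSH complex, histone and DNA methyltransferases and their partners, and also the zinc finger genes Zfp42, Zfp57 and Zfp809. It had a read in every column throughout, with a median level of 1.64 (range 1.24 to 3.48). Cbx5, which encodes HP1 alpha, stood at 3.48, Trim28 at 3.20, the HP1 gamma gene Cbx3 at 2.62 and the HUSH subunit gene Mphosph8 at 2.52. Setdb1 stood at 1.39 and the maintenance DNA methyltransferase gene Dnmt1 lowest at 1.24. The zinc finger genes Zfp42, Zfp57 and Zfp809 stood at 2.58, 1.61 and 1.57. No test was made between this list and the Zfp900-series genes.

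Of the 26 tested genes of this list 0 were called in any of the 4 contrasts in limma, against 0.0131% of all tested windows for 4HT minus EtOH and 0.0196%, 0.0718% and 0.0457% for ES, LS and G2 minus G1. At an unadjusted p under 0.05 there were 0 for 4HT minus EtOH, 5 for ES, 3 for LS and 1 for G2 minus G1, against 5.28%, 6.78%, 6.9% and 5.64% of all tested windows. The genes so counted were all higher than in G1. The largest were the histone methyltransferase gene Suv39h1 (0.45 in ES and 0.40 in LS) and Zfp42, a zinc finger gene of naive stem cells (0.42 in ES and 0.47 in LS), with adjusted p from 0.520 to 0.644. The median of 4HT minus EtOH was 0.0047 with 14 above 0, and those of ES, LS and G2 minus G1 were 0.046, 0.020 and 0.066 with 18, 16 and 19 above 0. The lowest 4HT minus EtOH values were -0.19 at the deacetylase gene Hdac1 and -0.19 at Morc2a, a partner of the HUSH complex (unadjusted p 0.0723 and 0.0718, adjusted p 0.969 each in limma). Trim28 itself differed by -0.084 and Setdb1 by -0.0094.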

How the data were processed

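The authors deposited a coverage signal for windows around start sites and for accessible regions, in 1 pooled column a group. The submitters' processing notes name mm10, featureCounts and DESeq2, without role or version. The aligner, the region caller and the handling of reads with several matches are not given in the sources used here. The members and gene lists were chosen with earlier results of these data known. Genes and promoters came from RefSeq tables (GRCm38.p6), in which 55 of the 62 genes had a promoter. For 5 genes without one (Zfp960, Zfp978, Zfp990, Zfp991 and Zfp992), the gene end with a window within 650 bp was taken as the start. Signal was taken as log2(signal + 0.1), which understates folds of low windows, centred with cyclic loess and fitted in limma 3.58.1 (R 4.3.3; treatment and fraction, intensity trend, robust moderation, 3 residual degrees of freedom). The fit was also run on simulated windows with known changes between treatments. These held no fraction differences and no 1-read limit, so the run does not bear on the fraction contrasts or on weak windows. Near copies were found with BLAST 2.17.0. Genes were named by level (the 6 highest and 6 lowest), by 4HT minus EtOH with 1 sign in 4 of 4 fractions, and by fraction contrast with 1 sign in both treatments (the 3 highest and 3 lowest). For regions, the genes with the most were named. Other genes were named after their values were seen. Alternatives were other pseudocounts, centrings, filters and selections of genes. Depth limits every value, and intervals of shares were not computed, because the signal holds no counts.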

Additional observations from a re-analysis of the deposited data

How the results depend on the processing

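None of the 40 genes was called in any contrast under any alternative run, with a smallest adjusted p in limma of 0.823 for 4HT minus EtOH, 0.447 for ES, 0.454 for LS and 0.808 for G2 minus G1. The medians over the genes moved. Without centring they were -0.073 in ES, -0.098 in LS and -0.11 in G2 minus G1. The medians over all tested windows in that setting were -0.064, -0.064 and -0.089, so the offset was largely common to all windows. With a mean level of at least 1.6 the medians over the genes were -0.11, -0.15 and -0.076. A pseudocount of 0.02 gave -0.047 in LS and -0.031 in G2, and one of 0.5 gave -0.011 and -0.0095. With no minimum level the LS median was -0.022. The next 3 selections were chosen after seeing the data. Without the chromosome 4 cluster the medians were -0.0023 in LS and -5.6e-06 in G2. With only genes that have a listed promoter they were -0.020 and -0.0090. Without genes that have a near copy the G2 median was -0.0077. As deposited signal, a different unit, the median level of the 46 genes was 0.163. Zfp940 turned to -0.011 in LS minus G1 without centring. The cause of these shifts was not tested, beyond the fewer genes in each selection. The 4HT minus EtOH median was between -0.029 and 0.026 in all settings, and lay above 0 without centring, with a level of at least 1.6, and without G1, LS or G2. The other 91 summary results and 191 single values kept their direction or moved by less than the spread. Fits of 1 treatment alone have 1 column a fraction and gave medians but no calls. The regions were tested only as described. No paired analysis was possible because the columns carry no replicate number. Replicates could not be left out for the same reason. Shallow depth limits what can be seen: a start window under 1.3 stands close to the lowest value a column can hold.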
